A study of Mus musculus with 6 samples.

Results

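Coelomic epithelium markers are genes expressed in the single layer of cells that covers the gonad. The 10 genes were chosen by symbol, with earlier results of these data known: Podxl, Upk3b, Upk1b, Krt19, Krt8, Krt18, Krt7, Lrrn4, Cldn10 and Msln. Of these, 8 were found among the 11736 genes with values. Cldn10 and Msln, which encode a claudin and mesothelin, are not analysed here. The samples were gonadal somatic cells of XY (male) C57BL/6 mice taken at embryonic day E11.5, all carrying the Nr5a1-hCD271 allele, through which cells positive for human CD271 were picked out with magnetic beads. The groups were 3 libraries of genotype Cdyl-Het and 3 of genotype Cdyl-KO, which the study's design text calls hetero and homo deficient for Cdyl. Wild-type gonads are not analysed here, so both groups carried a Cdyl deficiency as well as the marker allele. Cdyl encodes a chromodomain protein that takes part in gene repression by chromatin. The form of the Cdyl mutation, the number of embryos per library and any pooling were not stated in the labels. The p-values thus measure only how these samples spread, and that spread may be technical.

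The coelomic epithelium is a mesothelium, a simple epithelium of mesodermal origin. In the early gonad its cells divide, leave the surface and move inward, where they give rise to supporting cells, among them the precursors of Sertoli cells, and to interstitial cells. Its cells hold keratin filaments, which are built from pairs of one type I keratin (here Krt18 and Krt19) and one type II keratin (here Krt7 and Krt8), and their free surface carries sialomucins and uroplakins. None of these genes is restricted to the coelomic epithelium: Podxl is also made by endothelial cells and podocytes, and the keratins by mesonephric tubules and ducts.

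Values are RPKM, that is reads corrected for gene length and library depth, divided by a scaling factor per library, and are called scaled RPKM below. The depth implied by the deposited values was 34.6 to 45.2 M reads per library, so the 8 genes rested on between 154 reads (Upk1b in Cdyl-KO replicate 1) and 28735 reads (Podxl in Cdyl-KO replicate 3). Cdyl was at 8.02 ± 0.230 scaled RPKM in Cdyl-Het and 6.92 ± 0.153 in Cdyl-KO (SD, n = 3 per group), which did not pass the threshold (limma adjusted p = 0.0702). Without knowing which part of Cdyl was mutated, these levels give no check of the labels.

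Among the markers, 5 of the 8 were higher in Cdyl-KO (Podxl, Upk3b, Krt18, Krt8 and Lrrn4), 0 were lower and 3 missed the threshold (Krt7, Krt19 and Upk1b; limma, Benjamini-Hochberg adjusted p under 0.05 over all genes). At an unadjusted p under 0.05, 6 were higher and 0 lower. The share of all genes under this unadjusted limit was not counted, so unadjusted counts, here and below, have no background to be read against. Of all genes tested, 4.67% were called higher and 2.83% lower, 7.50% in all. Since the 8 genes were chosen with earlier results of these data known, setting them beside all genes, here and below, is a description and no test. The median log2 change of the 8 genes was 0.31, and that of all genes was 0.00. All 3 Cdyl-KO values lay above all 3 Cdyl-Het values for 6 of the 8 genes, the 5 called and Krt7, against 17.1% of all genes, and for 0 of the 8 all lay below, against 14.5%. Abundant genes leaned the same way: the 2934 genes with the highest mean level, which include Podxl, Krt8 and Krt18, had a median log2 change of 0.07 and 9.07% called higher. In RNA from many cells, more cells of this type and more RNA per cell cannot be told apart. With 1 library left out, the number called higher was 3, 2 and 1 on dropping Cdyl-Het replicate 1, 2 or 3 in turn, and 2 on dropping any Cdyl-KO replicate (1, 2 or 3). It was 3 on the deposited values without scaling, where the median of the 8 genes was 0.19 and that of all genes was -0.12. Without scaling, 2.6% of all genes were called higher and 1558 of the 11736 lower. The fits with 1 library left out called 1.68% to 3.3% of all genes higher and 56 to 260 genes lower. Counts under these settings, for the markers and the lists below, are to be read beside these numbers.

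**Figure D1:**
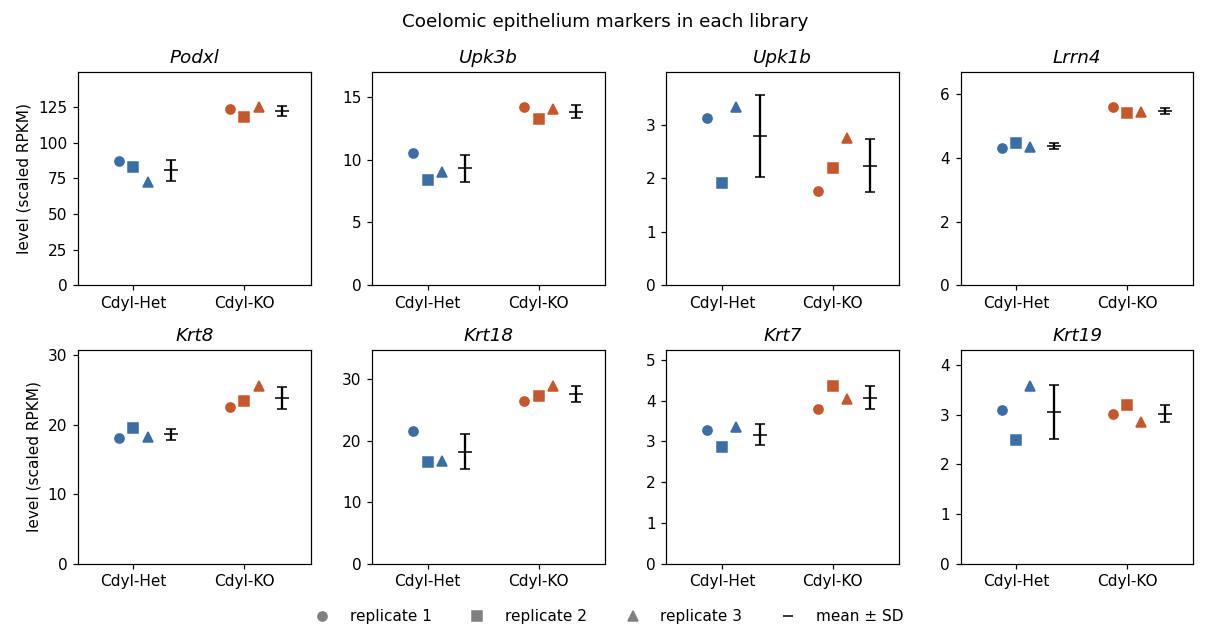
Level of each of the 8 genes in scaled RPKM (vertical axes, each from 0) in the 3 Cdyl-Het and 3 Cdyl-KO libraries (symbols, by replicate), with the mean and SD of each group at the right. The groups do not overlap for Podxl, Upk3b, Lrrn4, Krt8, Krt18 and Krt7, and overlap for Upk1b and Krt19.

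Promoter sequence was printed for the called genes found in the RefSeq table (build GRCm38.p6, the build of mm10), since these were called in the same direction. Of the 10 symbols, 6 had an entry. Each window runs from 250 bases before to 50 bases after the RefSeq start and is given 5′ to 3′ on the gene's strand, with motif matches in capitals. The motifs searched on both strands were AAGGTCA (a site bound by Nr5a1), AGATAA and its variant TGATAA (bound by GATA factors), CATTCC (TEAD factors), CTTTGAT and its variant CTTTGAA (TCF/LEF factors), GCGGGGGCG (Wt1 and Egr factors) and TTCAGCACC (the left part of the site of the repressor REST). The windows of Krt8 and Krt18 are shown because the genes are neighbours on chromosome 15 with partner products, and those of Upk3b and Lrrn4 because both genes mark mesothelium.
Krt8 (chr15:102004293-102004592, minus strand): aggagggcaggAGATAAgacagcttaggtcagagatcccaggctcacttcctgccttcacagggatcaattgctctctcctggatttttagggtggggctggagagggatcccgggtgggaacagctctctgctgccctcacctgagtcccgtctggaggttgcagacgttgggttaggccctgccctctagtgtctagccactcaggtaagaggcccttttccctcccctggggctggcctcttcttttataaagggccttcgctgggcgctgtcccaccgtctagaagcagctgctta
Krt18 (chr15:102027966-102028265, plus strand): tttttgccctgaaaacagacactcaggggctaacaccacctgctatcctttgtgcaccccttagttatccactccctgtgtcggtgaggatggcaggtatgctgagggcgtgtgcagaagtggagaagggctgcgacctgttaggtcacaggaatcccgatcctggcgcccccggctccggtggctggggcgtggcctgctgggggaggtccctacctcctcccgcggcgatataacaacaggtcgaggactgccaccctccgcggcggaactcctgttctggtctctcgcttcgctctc
Upk3b (chr5:136038246-136038545, plus strand): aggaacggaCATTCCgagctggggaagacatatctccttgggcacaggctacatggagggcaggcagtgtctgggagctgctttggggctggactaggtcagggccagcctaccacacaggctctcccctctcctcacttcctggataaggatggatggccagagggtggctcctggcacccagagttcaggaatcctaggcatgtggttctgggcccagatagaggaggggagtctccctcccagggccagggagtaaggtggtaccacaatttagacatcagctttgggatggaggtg
Lrrn4 (chr2:132880813-132881112, minus strand): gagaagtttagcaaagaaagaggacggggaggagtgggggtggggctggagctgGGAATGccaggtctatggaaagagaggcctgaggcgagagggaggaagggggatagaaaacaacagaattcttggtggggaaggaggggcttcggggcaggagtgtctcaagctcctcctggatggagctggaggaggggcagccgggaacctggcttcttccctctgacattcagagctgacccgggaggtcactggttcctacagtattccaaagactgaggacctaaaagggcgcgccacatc
Krt8 held the GATA letters AGATAA 239 bases before its start, which 18.6% of 32851 promoter windows held in either form. Upk3b held the TEAD letters CATTCC 241 bases before its start and Lrrn4 held them on the opposite strand, read as GGAATG and beginning 196 bases before its start. Of all windows, 14.7% held the TEAD letters. The Krt18 window held none of the letters searched. No window of these 4 genes held AAGGTCA, the TCF/LEF, the Wt1 and Egr or the REST letters, which 4.7%, 8.7%, 2.9% and 0.4% of windows held. A match describes the sequence only.

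The surface proteins are described first. Podxl, a sialomucin of the free cell surface that keeps apposed membranes apart (chromosome 6, 31519488 to 31563981, mm10), had 87.1, 82.7 and 72.3 scaled RPKM in Cdyl-Het, against 124, 118 and 125 in Cdyl-KO. The lowest Cdyl-KO library was thus above the highest Cdyl-Het library. The mean rose 1.52-fold (log2 change 0.60, SE 0.08, limma adjusted p = 0.00867). Podxl made up 55.3% to 59.6% of the summed level of the 8 genes in Cdyl-Het and 59.9% to 61.6% in Cdyl-KO, so a sum over the list is mostly Podxl. The other 7 genes alone summed to 56.1 to 64.0 scaled RPKM in Cdyl-Het and 77.3 to 83.6 in Cdyl-KO. Podxl passed the threshold in all 13 alternative fits (adjusted p 0.00655 to 0.0395).

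Upk3b, a uroplakin and a defining gene of mesothelium (chromosome 5, 136038496 to 136046487), had 10.5, 8.39 and 9.01 scaled RPKM in Cdyl-Het, against 14.1, 13.2 and 14.1 in Cdyl-KO. These values stand for 1207 to 1492 reads and 1942 to 2082 reads. The mean rose 1.48-fold without overlap (log2 change 0.53, SE 0.08, limma adjusted p = 0.0139). The adjusted p was 0.0646 when Cdyl-Het replicate 3 was left out and 0.0532 when Cdyl-KO replicate 1 was, at log2 changes of 0.51 in both (0.00922 to 0.0646 over 13 alternatives).

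Upk1b, a uroplakin of the tetraspanin family (chromosome 16, 38773184 to 38800328), had 3.13, 1.91 and 3.33 scaled RPKM in Cdyl-Het, against 1.76, 2.20 and 2.75 in Cdyl-KO. The groups overlapped, with Cdyl-Het replicate 2 below 2 of the Cdyl-KO libraries. The log2 change was -0.22 with a 95% interval of -0.63 to 0.20 (limma adjusted p = 0.489). Its read numbers, 154 to 326 per library, were with those of Krt19 the lowest of the 8 genes. Other uroplakins are not analysed here.

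Lrrn4, a leucine-rich repeat membrane protein known from mesothelium (chromosome 2, 132868305 to 132880891), had 4.32, 4.48 and 4.34 scaled RPKM in Cdyl-Het, against 5.59, 5.42 and 5.43 in Cdyl-KO. The spread within each group was narrow and the groups did not overlap. The mean rose 1.25-fold (log2 change 0.27, SE 0.05, limma adjusted p = 0.0264). This call was lost on the deposited values without scaling (log2 change 0.15, adjusted p = 0.0950) and in all 6 fits that left out a library, whichever it was (Cdyl-Het replicates 1, 2 and 3: adjusted p = 0.0708, 0.0700 and 0.0864, and Cdyl-KO replicates 1, 2 and 3: 0.0947, 0.0724 and 0.0687). The range over 12 alternatives was 0.0257 to 0.0969.

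Of the keratins, Krt8 and Krt18, the partners that form the first filaments of simple epithelia, rose, and Krt7 and Krt19 did not pass the threshold. Krt8 (type II; chromosome 15, 101996698 to 102004482) had 18.1, 19.4 and 18.2 scaled RPKM in Cdyl-Het, against 22.5, 23.4 and 25.6 in Cdyl-KO. The mean rose 1.28-fold without overlap (log2 change 0.34, SE 0.06, limma adjusted p = 0.0243). Among fits with a library left out, Krt8 passed only without Cdyl-KO replicate 1. The adjusted p was 0.0656, 0.0551 and 0.0858 without Cdyl-Het replicates 1, 2 and 3, and 0.0658 and 0.0599 without Cdyl-KO replicates 2 and 3. It was 0.0503 on the deposited values without scaling, where the log2 change was 0.20 (0.0177 to 0.0858 over 13 alternatives). Exons of Krt8 overlap those of Gm36026 on the opposite strand, and since the strand setting of the counting is not given, reads may be shared.

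Krt18 (type I; chromosome 15, 102028180 to 102032027) had 21.6, 16.5 and 16.6 scaled RPKM in Cdyl-Het, against 26.5, 27.3 and 28.9 in Cdyl-KO. Cdyl-Het replicate 1 stood above the other 2 of its group and still below every Cdyl-KO library. The mean rose 1.51-fold (log2 change 0.58, SE 0.10, limma adjusted p = 0.0222). Among fits with a library left out, Krt18 passed only without Cdyl-Het replicate 1. The adjusted p was 0.0718 and 0.0837 without Cdyl-Het replicates 2 and 3, and 0.0595, 0.0622 and 0.0652 without Cdyl-KO replicates 1, 2 and 3 (0.0064 to 0.0837 over 13 alternatives). Per library, the ratio of Krt18 to Krt8 was 1.19, 0.847 and 0.914 in Cdyl-Het, against 1.18, 1.17 and 1.13 in Cdyl-KO. The ratios overlapped between groups, so the larger change of Krt18 was not set apart from that of Krt8.

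Krt7 (type II; chromosome 15, 101411043 to 101430313) had 3.28, 2.86 and 3.35 scaled RPKM in Cdyl-Het, against 3.80, 4.37 and 4.03 in Cdyl-KO. The groups did not overlap, but the difference did not pass after adjustment (log2 change 0.28, 95% interval 0.10 to 0.46, limma adjusted p = 0.0698). Its mean in Cdyl-KO was 1.29 times that in Cdyl-Het, beside 1.28 times for Krt8. Its exons overlap those of Gm671 on the opposite strand. Krt19, a type I keratin (chromosome 11, 100140810 to 100148665), had 3.10, 2.50 and 3.59 scaled RPKM in Cdyl-Het, against 3.03, 3.19 and 2.85 in Cdyl-KO. Every Cdyl-KO value lay within the range of Cdyl-Het. The log2 change was -0.01 with a 95% interval of -0.26 to 0.24 (limma adjusted p = 0.977). The log2 change of Krt8, 0.34, lay outside this interval. The pseudocount shrinks changes of weak genes such as Krt19 more, so the 2 genes are not compared on equal terms.

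In order of level, Podxl was far above the rest and stood above 97.5% of all genes by its Cdyl-Het mean (80.7 ± 7.62 scaled RPKM; SD, n = 3). Krt8 (18.6 ± 0.759) and Krt18 (18.2 ± 2.92) followed and did not differ beyond their spread. Upk3b (9.30 ± 1.08) and Lrrn4 (4.38 ± 0.0874) came next, each apart from its neighbours. Krt7 (3.16 ± 0.263), Krt19 (3.06 ± 0.544) and Upk1b (2.79 ± 0.764) overlapped. In Cdyl-KO the order of the lower genes was Krt7 (4.07 ± 0.283), Krt19 (3.02 ± 0.167) and Upk1b (2.24 ± 0.495), without overlap between these 3. All 8 genes had a mean above 1.01 RPKM, about the lowest group mean that put a gene into the tables, in both groups, so none was listed through only one of them.

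**Figure D2:**
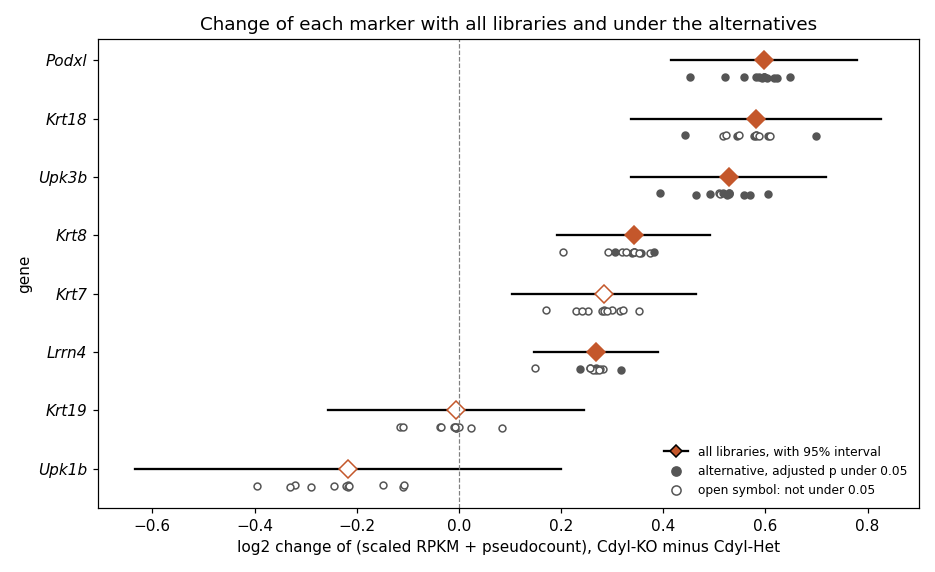
Log2 change from Cdyl-Het to Cdyl-KO (horizontal axis, log2 of scaled RPKM plus a pseudocount) for each of the 8 genes. Diamonds with bars give the fit on all libraries with its 95% interval, circles below them the alternative fits, and filled symbols an adjusted p under 0.05. Podxl is filled throughout, Krt18, Upk3b, Krt8 and Lrrn4 are filled in part, and Krt7, Krt19 and Upk1b are open.

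Genes that work with the markers were read from lists written out by symbol, and genes of a list without values are not analysed here. Podxl is tied to the cell cortex by partner proteins. Of 9 relatives, linkers and podocyte genes with values, 2 were higher, 0 lower and 7 did not pass the threshold (list median 0.05). Above 0 lay 5 of them and below 0 lay 4. At an unadjusted p under 0.05, 2 were higher and 1 lower, and without scaling 1 was higher and 1 lower after adjustment. Slc9a3r1, the PDZ adaptor NHERF1 that binds Podxl, had 14.3, 12.8 and 12.0 scaled RPKM in Cdyl-Het, against 18.1, 19.7 and 20.1 in Cdyl-KO (log2 change 0.54, SE 0.08, limma adjusted p = 0.0109). Ezr, which encodes ezrin and links that complex to actin, rose from 25.4 ± 2.37 to 31.8 ± 1.10 (SD, n = 3 per group; log2 change 0.32, limma adjusted p = 0.0442). The other ezrin family members Msn and Rdx had log2 changes of -0.06 and -0.03, and Podxl2, the closest relative of Podxl on the list, had 0.05. Slc9a3r2 and Synpo, also on the list, had -0.05 and -0.29 (limma adjusted p = 0.692 and 0.164). The call of Ezr was lost on the deposited values without scaling (adjusted p = 0.103), with upper quartile scaling (0.0617) and without the trend (0.0608), and of the fits with a library left out it passed only without Cdyl-Het replicate 1 (0.121, 0.131, 0.0982, 0.102 and 0.117 without Cdyl-Het replicates 2 and 3 and Cdyl-KO replicates 1, 2 and 3; 0.0206 to 0.131 over 13 alternatives). Exons of Ezr overlap those of Sytl3.

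Keratin filaments are anchored at desmosomes. Of 8 desmosome and plakin genes with values, 2 were higher, 0 lower and 6 did not pass (list median 0.17). At an unadjusted p under 0.05, 5 were higher and 2 lower, and without scaling 2 were higher and 2 lower after adjustment. Dsp, the desmoplakin gene whose product binds keratins, had 14.6, 15.0 and 14.1 scaled RPKM in Cdyl-Het, against 19.6, 19.4 and 20.1 in Cdyl-KO (log2 change 0.41, SE 0.05, limma adjusted p = 0.00751), and exons of Dsp overlap those of Gm10129. Pkp2, a plakophilin that recruits desmoplakin, rose from 5.14 ± 0.262 to 6.97 ± 0.150 (SD, n = 3 per group; log2 change 0.38, limma adjusted p = 0.0127). Its adjusted p was 0.0527 without Cdyl-Het replicate 2 and 0.0536 without Cdyl-Het replicate 3 (0.0104 to 0.0536 over 13 alternatives). Jup and Pkp4, the other armadillo proteins of these junctions with values, had log2 changes of -0.17 and -0.23 (adjusted p = 0.142 and 0.0998).

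Of the 18 genes of epithelial junctions and polarity reported here, 4 were higher and 14 did not pass (median of the 18, 0.06). At an unadjusted p under 0.05, 5 were higher and 1 lower. F11r, the junctional adhesion molecule JAM-A, rose 1.43-fold, with means of 21.97 ± 2.64 and 31.4 ± 0.9996 (SD, n = 3 per group; log2 change 0.50, limma adjusted p = 0.0186). Cgn, which encodes the tight junction protein cingulin, Cdh3, which encodes P-cadherin, and Llgl1, a polarity gene, had log2 changes of 0.40, 0.31 and 0.28. On the deposited values without scaling, 1 was higher and 2 were lower, and the median was -0.05. Without the empirical Bayes trend 2 were higher, as Cdh3 (adjusted p = 0.0601) and Llgl1 (0.0522) no longer passed. With a library left out, F11r passed only without Cdyl-KO replicate 3 or Cdyl-Het replicate 1 (0.00844 to 0.0685), Cgn and Cdh3 only without Cdyl-Het replicate 1 (0.0151 to 0.10 and 0.0417 to 0.115), and Llgl1 in none of the 6 fits (0.0559 to 0.103). Exons of Llgl1 overlap those of Flii.

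Among 10 other genes known from mesothelium, 1 was higher, 0 lower and 9 did not pass (list median 0.19). The unadjusted p was under 0.05 for 5 higher and 1 lower, and without scaling 1 was higher and 1 lower after adjustment. Without Cdyl-Het replicate 1, the counts were 2 higher and 1 lower. Igfbp5, an IGF-binding protein, had 130, 119 and 109 scaled RPKM in Cdyl-Het, against 184, 181 and 176 in Cdyl-KO (log2 change 0.59, SE 0.07, limma adjusted p = 0.00848). Aldh1a2, which makes retinoic acid, was at 56.0 ± 8.14 and 74.8 ± 2.89 scaled RPKM and narrowly missed the threshold (log2 change 0.42, limma adjusted p = 0.0504). Bnc1, a zinc finger factor of mesothelium, had a log2 change of 0.33 (adjusted p = 0.116), and Nkain4, which is known from mesothelium together with Lrrn4 and Upk3b, had 0.30 (adjusted p = 0.537). Below 0 on this list were 3 genes, Aldh1a1, Efemp1 and C3. Their log2 changes were -0.54, -0.40 and -0.25 (limma adjusted p = 0.105, 0.425 and 0.414). Aldh1a1 was the gene called lower without scaling (limma adjusted p = 0.0427). Of the 4 other keratins and the 4 claudins with values, 0 passed in either direction (limma; 1 of each 4 had an unadjusted p under 0.05, and both were higher, Krt14 with a log2 change of 0.64 and adjusted p = 0.0581, and Cldn11 with 0.50 and 0.0610).

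Cells that leave an epithelium commonly switch on mesenchymal factors. Of 9 such genes with values, 2 were lower, 0 were higher and 7 did not pass (list median -0.08), with 2 lower and 0 higher at an unadjusted p under 0.05. Below 0 lay 5 of the 9 and above 0 lay 4. Twist1 and Snai1 were among those above 0, with log2 changes of 0.26 and 0.12 (limma adjusted p = 0.225 and 0.625). Snai2 and Zeb1, repressors of epithelial genes, fell by 0.36 and 0.31 on the log2 scale (limma adjusted p = 0.0447 and 0.0255). The levels of Snai2 were 30.5, 34.0 and 35.7 scaled RPKM in Cdyl-Het, against 27.1, 26.9 and 23.4 in Cdyl-KO. With a library left out, both passed only without Cdyl-Het replicate 1 (0.0423 to 0.133 for Snai2 and 0.0284 to 0.088 for Zeb1). Without the empirical Bayes trend the call of Snai2 was lost as well (adjusted p = 0.0606), which left 1 lower. Exons of Zeb1 overlap those of Gm10125.

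**Figure D3:**
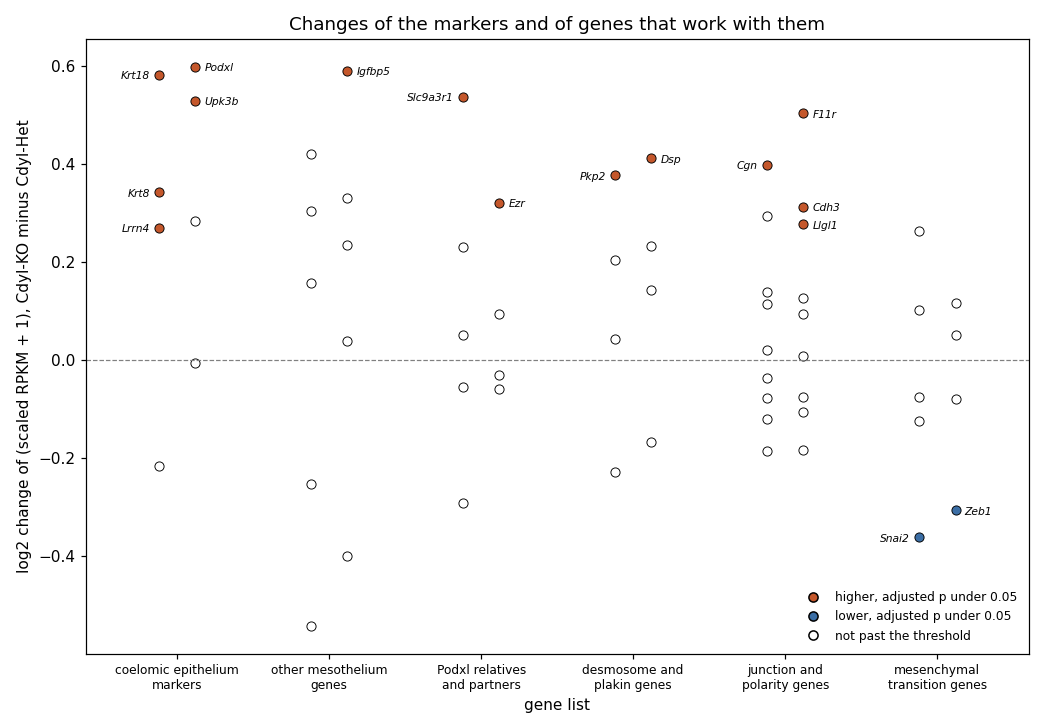
Log2 change from Cdyl-Het to Cdyl-KO (vertical axis, log2 of scaled RPKM plus 1) of each gene reported from 6 lists (horizontal axis), 1 circle a gene. Filled circles with names passed an adjusted p of 0.05, in orange where higher and in blue where lower. The named markers and partners lie above 0, while Snai2 and Zeb1 lie below.

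Markers of other cells that share these genes were measured in the same libraries, and their part in the results above was not tested. Of 11 endothelial markers with values, 5 were lower and 0 higher, and their summed level was 48.9 to 53.4 scaled RPKM in Cdyl-Het and 36.4 to 39.1 in Cdyl-KO, opposite in direction to Podxl (list median -0.43). At an unadjusted p under 0.05, 8 were lower and 0 higher. The number lower fell to 2 on dropping any Cdyl-Het replicate (1, 2 or 3), and to 1, 3 and 2 on dropping Cdyl-KO replicate 1, 2 or 3 in turn. Listed markers without values, 3 of 14 endothelial, 3 of 11 mesonephric, 8 of 10 germ cell and 7 of 15 blood genes, are not analysed here. Of 8 mesonephric markers with values, 2 were higher and 0 lower (the same counts unadjusted), and the summed level was 19.7 to 26.97 in Cdyl-Het and 30.5 to 34.4 in Cdyl-KO, although the list median was -0.11. The higher genes were Calb1, a calcium-binding protein (5.22 ± 0.583 to 12.8 ± 0.899; SD, n = 3 per group), and Pax8, a paired-box factor (log2 changes 1.15 and 0.40). Exons of Pax8 overlap those of Gm13415, and with a library left out Pax8 passed only without Cdyl-Het replicate 1 (0.0452 to 0.0717). The other 6, among them the defining genes Pax2 and Cdh16, did not pass. They were what remained once the called genes were taken out, so their sum does not stand for the whole list. They summed to 16.8, 11.2 and 16.9 scaled RPKM in Cdyl-Het, against 11.6, 15.8 and 12.2 in Cdyl-KO. The lowest of these sums was that of Cdyl-Het replicate 2. In this library Krt19, Krt7, Krt18 and Upk3b were lowest, and Upk1b was lowest among the Cdyl-Het libraries. Podxl, Krt8 and Lrrn4 were not lowest in it.

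Germ cell markers were near the lower limit of the tables, with 2 of 10 listed having values (summed level 3.50 to 5.51 and 3.75 to 4.05 scaled RPKM) and 0 called by limma, also unadjusted. Blood markers varied between libraries of a group, from 55.4 to 264 in Cdyl-Het and from 58.3 to 165 in Cdyl-KO, and 0 of 8 were called by limma (0 higher and 1 lower unadjusted). Of 11 interstitial markers, 2 were higher and 0 lower (4 and 4 unadjusted), and without scaling 0 were higher and 4 lower. With a library left out, 1 was higher without Cdyl-Het replicate 1 or without Cdyl-KO replicate 1, and 0 without Cdyl-Het replicate 2 or 3 or without Cdyl-KO replicate 2 or 3, and without the trend 1 was higher. All 8 early Sertoli genes with values were lower, and their summed level was 100.2 to 143 in Cdyl-Het and 41.0 to 61.2 in Cdyl-KO. The count fell to 4 when Cdyl-Het replicate 2 was left out, to 3 for Cdyl-Het replicate 3 and to 5 for Cdyl-KO replicate 1, and was 7 or 8 for the others. Of 11 factors of the gonadal surface and its precursors, 3 were higher (Emx2, Nr0b1 and Lhx9) and 0 lower (7 and 1 unadjusted; list median 0.18). They encode regulators of early gonad growth and fate and had log2 changes of 0.57, 0.50 and 0.46. Emx2 and Nr0b1 passed in all 6 fits with a library left out, and Lhx9 only without Cdyl-Het replicate 1 or 3 (0.0315 to 0.0874). Exons of Emx2 overlap those of Emx2os.

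**Figure D4:**
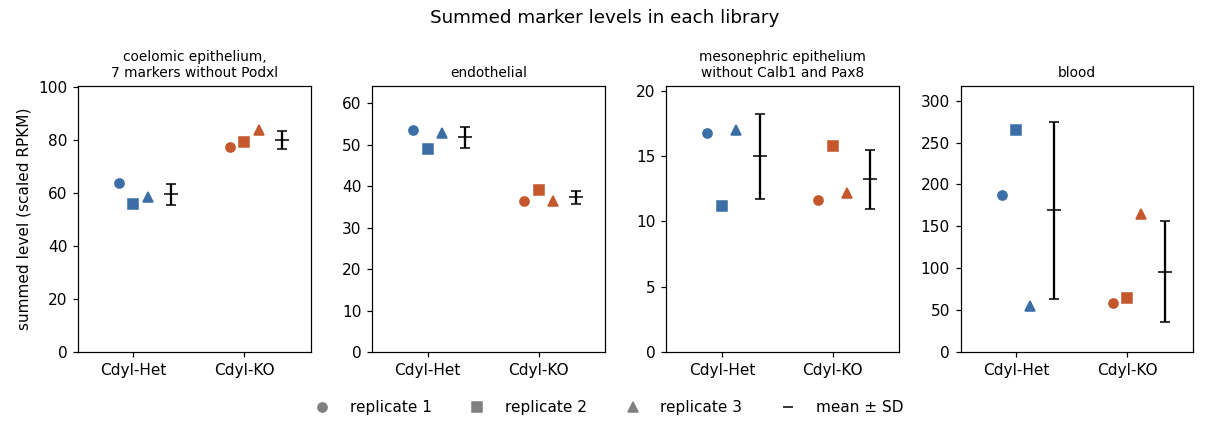
Summed level in scaled RPKM (vertical axes, each from 0) of 4 groups of markers in the 3 Cdyl-Het and 3 Cdyl-KO libraries (symbols, by replicate), with the mean and SD of each group at the right. The coelomic epithelium sum without Podxl lies higher and the endothelial sum lower in Cdyl-KO without overlap, while the mesonephric sum without Calb1 and Pax8 and the blood sum overlap. Calb1 and Pax8, the 2 mesonephric genes called higher, were taken out, so the sum shown does not stand for the whole list. The sum of all 8 mesonephric genes, not shown, did not overlap (19.7 to 26.97 in Cdyl-Het and 30.5 to 34.4 in Cdyl-KO).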

How the data were processed

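For every library, a list of 11736 gene symbols with their values was deposited by the authors. STAR, featureCounts 1.6.4 of Subread and mm10 are named per the submitters' processing notes. Per the labels' protocols, stranded libraries were made from total RNA of bead-selected cells. The deposited values carry no unit and were taken as RPKM from the values: they were not whole, and their sums differed between libraries. The sources used here do not state the annotation, strand setting, gene filter or normalization. Depth was worked out from single-exon genes, whose values came in steps of whole reads (85.2% to 87.0% of values up to 200 reads within a tolerance of 0.02), with exon lengths of GENCODE M21, which matched 98.3% of the symbols. Of the 6 read numbers implied for each marker, between 3 (Upk1b and Krt8) and 6 (Krt7 and Lrrn4) were even, so separate fragments may be fewer. Even numbers were not counted for the single-exon genes.

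Values were divided by a trimmed mean of log ratios to Cdyl-Het replicate 1 (30% of ratios and 5% of levels trimmed at each end). After adding a pseudocount of 1, log2 values were fitted by limma 3.58.1 in R 4.3.3, with group as the only term, empirical Bayes with trend, and Benjamini-Hochberg adjustment over all genes. Fold changes on this scale understate those of weak genes, and ratios of means are given beside some of them. The procedure was run on simulated data with independent noise for each gene. These data held no shifts shared by many genes and no scaling factors set apart by group, so they cannot test either. All 8 markers found are named, and of each other list up to 4 genes that passed, taken by smallest p, save that endothelial, interstitial and early Sertoli genes are given as counts; genes named without a call were chosen after their values were seen. The junction and polarity counts leave out 1 gene with values, which is not reported here. The markers and lists were chosen with earlier results of these data known. Alternatives changed the scaling, pseudocount, low-value filter, trend, replicate block or libraries.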

Additional observations from a re-analysis of the deposited data

How the results depend on the processing

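All 5 called markers kept their direction in every alternative run, and 1 of them (Podxl) kept its call in all 6 fits that left out a library. Of 31 called genes reported from the other lists, 31 kept their direction in every alternative and 9 kept their call in those 6 fits. On the deposited values without scaling, 3 markers were higher, their median log2 change was 0.19, and 1863 genes were called in place of 880, 16.4% of them higher against 62.3% with scaling and 50.8% with upper quartile scaling. With only genes of at least 5 scaled RPKM, 4 markers were tested and their median was 0.55. Leaving out a library gave 1 to 3 markers higher, a median of 0.29 to 0.35 and 253 to 647 genes called, with fewer libraries per fit. The sign of the Krt19 change turned to 0.0009, 0.0852 and 0.0241 (log2) on dropping Cdyl-Het replicates 1 and 3 and Cdyl-KO replicate 3, in a range of -0.1092 to 0.0852; the cause was not tested. The labels do not say whether the replicate numbers pair the samples. Correlations of same-numbered deviations were -0.052, -0.27 and -0.053, against -0.144 to 0.222 for differently numbered libraries. With 3 libraries per group these values cannot settle it. With the replicate block 2 markers (Podxl and Upk3b) and 337 genes were called. Scaling to another reference library, chosen after seeing the data, gave 5 markers and 929 genes. No marker was lower in any alternative (0 of 8, limma). Depth limits Upk1b and Krt19 most, with 154 to 326 and 189 to 312 reads per library.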

Other observations

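Ratios between members were chosen after their values were seen and were not tested. The ratio of Upk3b to Upk1b, both per length, was 3.36, 4.38 and 2.71 in Cdyl-Het, against 8.03, 6.01 and 5.11 in Cdyl-KO. The ratio of Krt19 to Krt18 was 0.144, 0.152 and 0.216 in Cdyl-Het, against 0.114, 0.117 and 0.0987 in Cdyl-KO. Neither ratio depends on the scaling between libraries, and in both the groups did not overlap. Upk3b and Krt18 passed the threshold in the fit, whereas Upk1b and Krt19 did not, with log2 changes of -0.22 and -0.01. The ratio of the type I pair (Krt18 and Krt19) to the type II pair (Krt7 and Krt8) was 1.16, 0.850 and 0.939 in Cdyl-Het, against 1.12, 1.10 and 1.07 in Cdyl-KO, and overlapped.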
